A study of Mus musculus with 9 samples.

Results

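Collagen chain genes were taken from the liver RNA-seq table as every listed gene whose symbol has the form Col, a type number, a and a chain number, such as Col1a1. The table listed 24008 genes, of which 42 were collagen chain genes. Enough reads were counted on 28 of the 42 for a test, and 14379 genes of the whole table were tested. The RNA came from 9 whole liver samples of mice with diet-induced nonalcoholic steatohepatitis (NASH), 3 per group, each taken as 1 mouse. Flox mice, given in the labels as wild type (WT), were the controls. F4MKO mice lacked the transcription factor IRF4 in skeletal muscle only, from Myl-Cre acting on IRF4 flox/flox alleles, both on C57BL/6J. F4MKO+FSTL1 mice carried the same deletion and received FSTL1, a protein secreted by muscle, from an AAV8 vector with the muscle creatine kinase (MCK) promoter injected into the gastrocnemius. All mice ate a high fat and high carbohydrate diet. The methods place a GFP vector in Flox and F4MKO mice, which the labels do not name, and they give 24 weeks of diet in one place and 12 in another, with 4 weeks from vector to collection. The reporting statement describes the animals as male C57BL/6J mice of 8 weeks, but does not tie this to the liver samples. The diet alone lasted longer than 8 weeks, so this was not the age at collection. The methods name both male and female Flox and F4MKO mice for the diet experiment, and the labels give neither age nor sex. The comparison of F4MKO with Flox asks what the loss of IRF4 in muscle does to the liver, and that of F4MKO+FSTL1 with F4MKO asks what FSTL1 from muscle adds to it.

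A collagen is built of chains that wind into a triple helix, in which glycine recurs at a fixed position of each amino acid triplet. Fibrillar collagens (types I, III and V in liver) form the ropes of scar tissue, type IV collagen forms the sheet of basement membranes, and FACIT collagens (fibril-associated collagens with interrupted triple helices) sit on the surface of fibrils. Type VI collagen forms beaded filaments, and the multiplexins XV and XVIII lie at basement membranes. In fibrotic liver, activated stellate cells and portal fibroblasts are known as the main sources of fibrillar collagen, while hepatocytes are known to make type XVIII.

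The classes carry the repeat differently in their coding sequence. As examples, 1 coding stretch each is given of a fibrillar, a basement membrane and a FACIT gene that the results turn on. A second fibrillar gene is added. The Col4a1 stretch was picked at an interruption, and the others as exons with an unbroken repeat. The stretches alone therefore do not compare the classes. The stretches were read 5′ to 3′ from GRCm38 with the GENCODE vM21 transcripts. Capitals mark in-frame glycine codons (GGN). The Col1a1 stretch is an exon of 54 bases at chr11:94939904-94939957 (plus strand), the Col3a1 stretch an exon of 54 bases at chr1:45325360-45325413 (plus strand), and the Col14a1 stretch an exon of 54 bases at chr15:55467960-55468013 (plus strand). The Col4a1 stretch holds 72 coding bases that span exons within chr8:11236463-11237868 (minus strand).
Col1a1: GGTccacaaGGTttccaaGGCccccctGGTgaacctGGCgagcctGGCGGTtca
Col3a1: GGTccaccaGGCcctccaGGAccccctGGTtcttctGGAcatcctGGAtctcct
Col4a1: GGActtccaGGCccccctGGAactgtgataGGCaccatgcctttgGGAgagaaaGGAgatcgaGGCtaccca
Col14a1: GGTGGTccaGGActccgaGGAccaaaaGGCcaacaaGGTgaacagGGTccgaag

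In the Col1a1, Col3a1 and Col14a1 exons, which were picked for it, the glycine codon recurs without a break. In Col4a1 the spacing widens in the middle of the stretch, where 6 codons break the repeat. The longest unbroken run held 338 triplets in Col1a1 and 344 in Col3a1, against 40 in Col4a1, which had 18 runs of at least 10, and 32 in Col14a1. Exons of exactly 54 bases made up 305 of the 627 internal coding exons of the 11 fibrillar genes (48.6%), 109 of 414 in the 9 FACIT genes (26.3%) and 12 of 284 in the 6 basement membrane genes (4.23%). In the other 16296 listed genes with a coding transcript the share was 0.405%.

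The depth of a library, as its total count on genes, ran from 20656976 to 24322984, and the 3 F4MKO+FSTL1 libraries were the shallowest. The hepatocyte genes checked (Alb, Apoa1, Ttr, Ass1, Cps1, Hnf4a, Cyp3a11 and Serpina1c) summed to between 70820 and 106500 CPM (counts scaled to a common library size) in the 9 libraries, so hepatocyte RNA was abundant in all of them. Irf4 had 101 to 132 counts in Flox, 120 to 130 in F4MKO, and 10, 92 and 116 in F4MKO+FSTL1 livers, but a deletion in muscle is not checked by liver RNA. Fstl1 had 6.15, 7.62 and 6.52 CPM in Flox, 16.1, 9.80 and 11.3 in F4MKO, and 5.33, 3.22 and 4.34 in F4MKO+FSTL1 livers. Its fall from F4MKO to F4MKO+FSTL1 passed the test (log2 fold change -1.53, adjusted p = 0.00171, edgeR). Reads from the vector, if any, were not told apart from those of the native gene. F4MKO replicate 1 stood apart, with the lowest hepatocyte sum, and it had the highest CPM of the 9 libraries for 17 of the 28 tested collagen genes. It was also highest for 14 of the 15 collagen genes called lower in F4MKO+FSTL1 than in F4MKO livers. Values without it are given where leaving it out ended the call of a collagen gene or moved a called log2 value of one by over 1.5 times, and for some other collagen genes.

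Collagen genes took between 0.102% and 0.163% of all counts, and in every library except F4MKO replicate 1 most of these came from 1 gene. Col18a1, whose chain releases endostatin, took 62.8% to 67.3% of the collagen counts in Flox, 47.0% to 57.0% in F4MKO and 70.1% to 73.4% in F4MKO+FSTL1 livers. Levels of different genes are compared here per length of transcript, in RPKM, which scales counts by transcript length and library size. In Flox livers, Col18a1 stood at 144 ± 4.45 RPKM (SD, n = 3). Col5a3 followed at 15.1 ± 1.29, then Col14a1 at 10.2 ± 1.76 and Col3a1 at 8.15 ± 0.904, where Col14a1 and Col3a1 did not differ beyond their spread. Col4a1 stood at 6.81 ± 0.288, Col1a2 at 5.57 ± 0.737, Col6a1 at 4.31 ± 0.302, Col27a1 at 4.15 ± 0.803 and Col4a2 at 3.86 ± 0.474 RPKM, the last 3 of them within their spread. In F4MKO livers Col3a1 was second, at 17.7 ± 4.86 RPKM, with a spread that met those of Col5a3 at 12.4 ± 1.40, Col4a1 at 12.3 ± 2.82 and Col1a2 at 10.7 ± 2.51. In F4MKO+FSTL1 livers Col3a1 was sixth at 4.47 ± 1.16 RPKM, with Col4a1 (5.22 ± 1.14) and Col27a1 (5.04 ± 1.29) above it, and Col1a2 (3.45 ± 0.758) and Col4a2 (3.11 ± 0.246) below it, all within the spread.

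Most collagen genes stood higher in F4MKO than in Flox livers, but none passed the threshold, and most stood lower again in F4MKO+FSTL1 livers, where many passed. A gene was called at an adjusted p under 0.05 (edgeR's quasi-likelihood test, Benjamini-Hochberg over 14379 genes) with a fold change above 1.5. In F4MKO compared with Flox livers, 0 of 28 collagen genes were called, where 0.271% of all tested genes were (0.202% higher, 0.0695% lower). The log2 fold change was above 0 for 21 of the 28 (49.4% of all tested genes). At an unadjusted p under 0.05, 13 of the 28 were higher (9.35% of all tested genes) and 2 were lower (7.51%), and the 2 groups of livers did not overlap for 13 higher (11.7%) and 3 lower collagen genes (10%). In F4MKO+FSTL1 compared with F4MKO livers, 16 of 28 collagen genes were called, where 14.4% of all tested genes were. Of these, 15 fell (11.2% of all genes) and 1, Col27a1, rose (3.21%). At an unadjusted p under 0.05 the counts were 20 lower (19.5%) and 1 higher (15.8%). The log2 fold change was below 0 for 22 of the 28 (48.6% of all genes), and the groups did not overlap for 20 lower (21.1%) and 2 higher collagen genes (18%). In F4MKO+FSTL1 compared with Flox livers, 0 of 28 were called, where 1 gene of all tested, or 0.00695%, was called, as lower, and 0 (0%) as higher. There, 13 of the 28 were lower at an unadjusted p under 0.05 (9.12% of all genes) and 0 were higher (4.26%). The log2 fold change was below 0 for 23 of the 28 (50.1% of all genes), and the groups did not overlap for 11 lower (10.7%) and 0 higher collagen genes (7.44%). The median log2 fold change over the 28 genes was 0.46, -0.99 and -0.51 in these 3 comparisons, beside -0.003, 0.0112 and -4e-04 over all tested genes. The first comparison and the second share the F4MKO libraries, so a high F4MKO value raises one and lowers the other. In whole tissue, fewer cells of a type and less RNA per cell cannot be told apart.

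**Figure D1:**
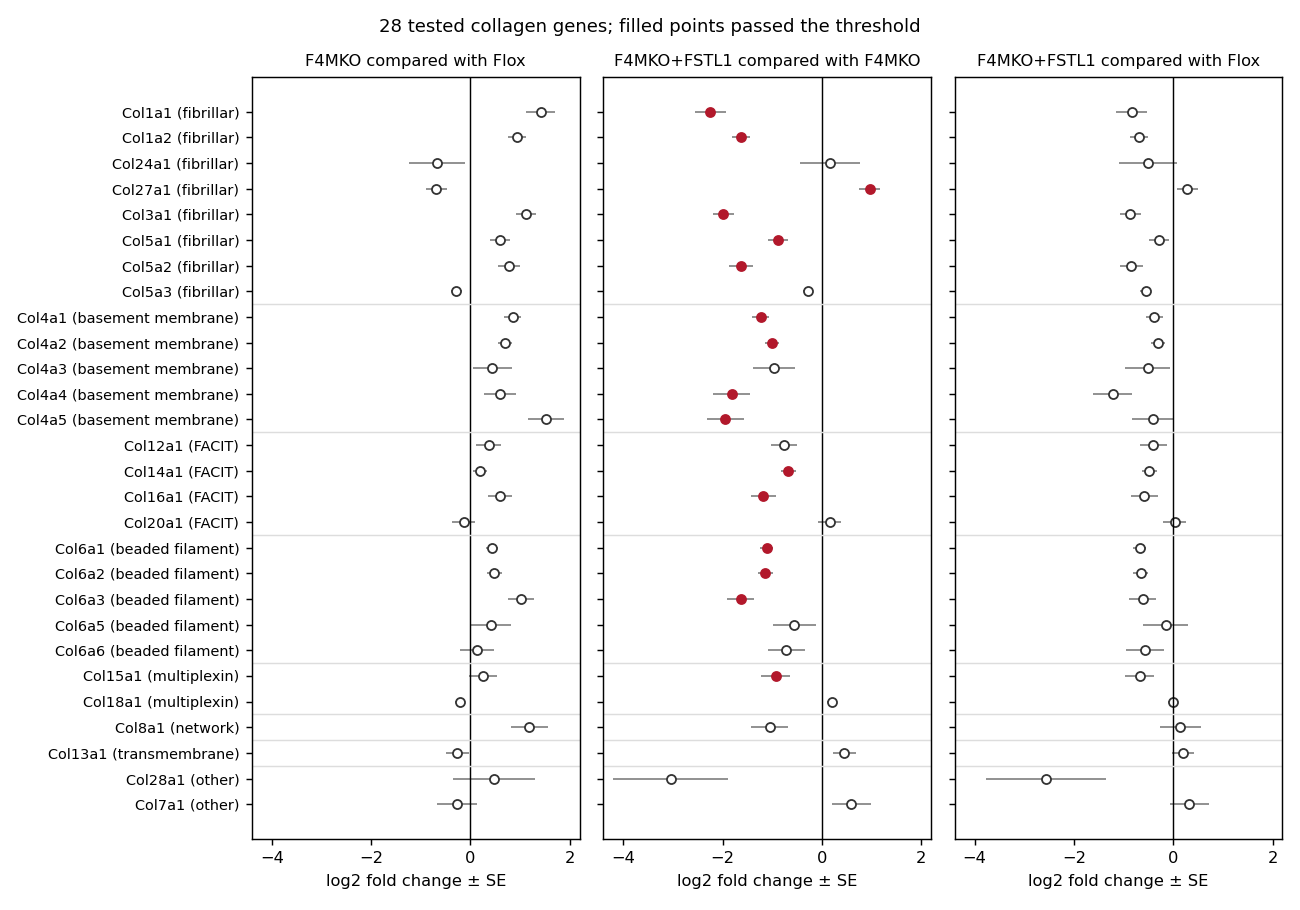
Log2 fold change ± SE of the 28 tested collagen genes in each comparison (columns), by class, where filled points passed the threshold. The middle column holds all 16 filled points, 15 left of 0 and Col27a1 right of it, and the outer columns hold none.

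The lack of calls in F4MKO compared with Flox did not hold in every fit. The smallest adjusted p of a collagen gene there was 0.0548 (edgeR, Col3a1). DESeq2 called 8 collagen genes, all higher: Col1a1, Col1a2, Col3a1, Col5a2, Col4a1, Col4a2, Col4a5 and Col6a3. Without the filter on low counts edgeR called the same 8, and Col27a1 as lower. Leaving out F4MKO replicate 1 gave 0 calls, and leaving out F4MKO replicate 3 gave 5 (Col1a1, Col1a2, Col3a1, Col4a1 and Col4a2). In F4MKO+FSTL1 compared with Flox, DESeq2 and the unfiltered fit each called the same 5 genes as lower, Col1a2, Col3a1, Col5a2, Col6a1 and Col6a2.

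The largest falls among the called genes were in fibrillar chains, Col1a1 and Col3a1. Of 11 fibrillar genes listed, 8 were tested, and 5 of them fell and 1 rose from F4MKO to F4MKO+FSTL1 (11.2% and 3.21% of all tested genes), with a median log2 fold change of -1.26. In F4MKO compared with Flox the median was 0.69, with 5 values above 0 and 3 below. Col3a1 encodes the single chain of type III collagen, which is laid down early in scars. Its level was 44.0, 50.9 and 41.1 CPM in Flox, 129, 88.0 and 78.3 in F4MKO, and 32.3, 21.8 and 20.6 in F4MKO+FSTL1 livers. The 3 groups did not overlap, with F4MKO highest and F4MKO+FSTL1 lowest. The fall from F4MKO was 3.95-fold (log2 fold change -1.98, SE 0.21, adjusted p = 0.000751, edgeR), and the difference of F4MKO from Flox was 2.17-fold (log2 1.12, SE 0.20, adjusted p = 0.0548, edgeR). Without F4MKO replicate 1 these log2 values were -1.74 and 0.87.

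Type I collagen is made of 2 chains from Col1a1 to 1 from Col1a2. Col1a1 stood at 15.7, 18.5 and 10.6 CPM in Flox, 57.7, 34.0 and 27.6 in F4MKO, and 11.5, 7.21 and 6.32 in F4MKO+FSTL1 livers. All F4MKO livers were above all others, while the lowest Flox liver lay below the highest F4MKO+FSTL1 liver. Col1a1 fell 4.76-fold from F4MKO (log2 -2.25, SE 0.31, adjusted p = 0.00152, edgeR), which was the largest fold among the called collagen genes. It was 2.66-fold higher in F4MKO than in Flox without passing the threshold (log2 1.41, SE 0.30, adjusted p = 0.0610, edgeR). Without F4MKO replicate 1 the log2 differences were -1.88 and 1.04. Col1a2 stood at 30.9, 33.0 and 25.4 CPM in Flox, 72.4, 51.0 and 47.7 in F4MKO, and 23.1, 15.6 and 16.6 in F4MKO+FSTL1 livers. Its groups did not overlap, and it fell 3.09-fold from F4MKO (log2 -1.63, adjusted p = 0.000968, edgeR).

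Type V collagen seeds fibrils and sets their width. Col5a2 had 6.51, 6.88 and 6.26 CPM in Flox, 15, 10.5 and 8.34 in F4MKO, and 4.58, 2.69 and 3.66 in F4MKO+FSTL1 livers, in 3 groups that did not overlap. Col5a1 had 6.46, 9.79 and 7.50 CPM in Flox, 14.2, 11.2 and 10.5 in F4MKO, and 8.32, 5.91 and 5.22 in F4MKO+FSTL1 livers, where only F4MKO stood apart. Both fell from F4MKO to F4MKO+FSTL1 (log2 -1.63 and -0.89, adjusted p = 0.00169 and 0.0121, edgeR). The call of Col5a1 was lost without F4MKO replicate 1 and without F4MKO+FSTL1 replicate 2, with an adjusted p of up to 0.0578 (edgeR). Col5a3 encodes the remaining type V chain, and it did not follow the other two. It had 89.1, 101 and 86.7 CPM in Flox, 83.2, 66.6 and 78.5 in F4MKO, and 60.2, 64.1 and 63.9 in F4MKO+FSTL1 livers, so that each group lay below the one before. None of its differences passed the test, and the adjusted p of F4MKO+FSTL1 against Flox was 0.0777 (log2 -0.56, edgeR).

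Col27a1 was the 1 collagen gene that rose. It encodes a fibrillar chain known from cartilage. It had 24.9, 33.2 and 36.8 CPM in Flox, 23.3, 14.5 and 21.1 in F4MKO, and 30.0, 49.3 and 35.9 in F4MKO+FSTL1 livers. The F4MKO livers lay below all others, and Flox and F4MKO+FSTL1 livers overlapped. The rise from F4MKO was 1.95-fold (log2 0.97, SE 0.22, adjusted p = 0.0101, edgeR), and F4MKO against Flox gave log2 -0.69 (SE 0.22, adjusted p = 0.154, edgeR). Col24a1, a low fibrillar gene, had 0.287 to 0.621 CPM in Flox, 0.106 to 0.419 in F4MKO and 0.104 to 0.514 in F4MKO+FSTL1 livers, with overlap throughout. Col2a1, Col11a1 and Col11a2, the fibrillar genes of cartilage, had at most 1 count in any library.

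**Figure D2:**
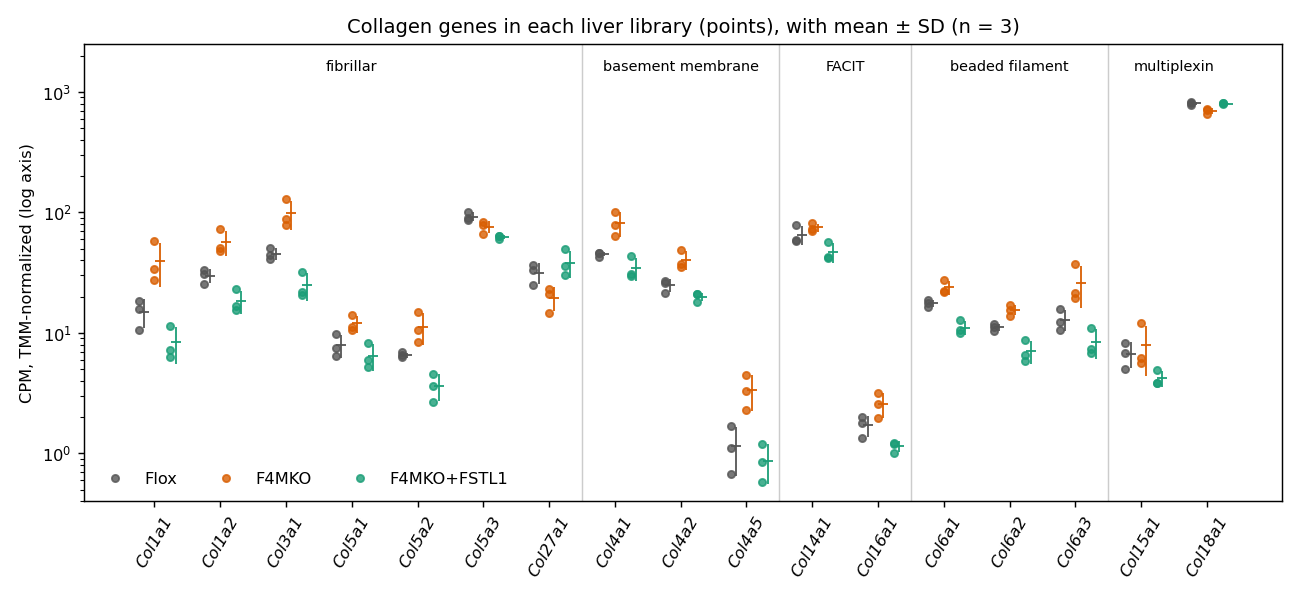
CPM (TMM-normalized, log axis) of 17 collagen genes in each liver library (points) with mean ± SD of 3 mice, by class. F4MKO points stand highest for most genes, and Col5a3, Col27a1 and Col18a1 do not follow that order.

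The basement membrane chains shared a direction in each comparison. Of 6 listed, 5 were tested, all 5 were above 0 in F4MKO against Flox (median log2 0.70) and all 5 below 0 in F4MKO+FSTL1 against F4MKO (median -1.23), where 4 fell (11.2% of all tested genes). Col4a1 and Col4a2 encode the chains found in most basement membranes, and they lie head to head on chromosome 8. Col4a1 had 46.3, 46.0 and 42.9 CPM in Flox, 101, 79.1 and 63.8 in F4MKO, and 43.2, 30.8 and 29.6 in F4MKO+FSTL1 livers. Col4a2 had 26.1, 27.1 and 21.4 CPM in Flox, 48.8, 37.1 and 35.2 in F4MKO, and 21.0, 18.2 and 20.9 in F4MKO+FSTL1 livers. For both, all F4MKO livers were above all others. They fell 2.35-fold and 2.01-fold from F4MKO (log2 -1.23 and -1.01, SE 0.17 and 0.14, adjusted p = 0.00159 and 0.00154, edgeR). Against Flox, F4MKO gave log2 0.85 and 0.70, each with an adjusted p of 0.0610 (edgeR).

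The other type IV chains build the basement membranes of particular tissues such as the kidney filter, and were scarce here. Col4a5 had 0.669, 1.68 and 1.11 CPM in Flox, 4.46, 3.31 and 2.27 in F4MKO, and 0.841, 0.577 and 1.20 in F4MKO+FSTL1 livers. F4MKO livers stood above all others, the fall from F4MKO was called (3.85-fold, log2 -1.94, SE 0.38, adjusted p = 0.00540, edgeR), and log2 1.53 against Flox was the largest value of any collagen gene there (adjusted p = 0.0811, edgeR). Col4a4 had 0.580, 0.656 and 0.843 CPM in Flox, 1.38, 0.879 and 0.878 in F4MKO, and 0.187, 0.288 and 0.418 in F4MKO+FSTL1 livers, and also fell (log2 -1.82, adjusted p = 0.00704, edgeR). Its lowest library held 4 counts. Col4a3, its head-to-head neighbour 71 bp away on chromosome 1, had 0.369 to 1.07 CPM in Flox, 0.719 to 1.03 in F4MKO and 0.261 to 0.561 in F4MKO+FSTL1 livers, and did not pass (log2 -0.96, adjusted p = 0.134, edgeR). Exons of another gene overlap 6.58% of its transcript. Col4a6 had at most 2 counts in any library.

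The FACIT medians lay nearer 0 than the fibrillar and basement membrane medians in F4MKO against Flox and in F4MKO+FSTL1 against F4MKO. In F4MKO+FSTL1 against Flox the FACIT median log2 was -0.44, beside -0.62 for fibrillar and -0.42 for basement membrane genes. Of 9 listed, 4 were tested, 0 were called in F4MKO against Flox (median log2 0.28), and 2 fell from F4MKO to F4MKO+FSTL1 (median -0.72), where 11.2% of all tested genes fell. The median of 0.28 was 0.13 without Flox replicate 3, 0.17 without F4MKO replicate 1 and 0.40 without Flox replicate 2. Col14a1, which is known to regulate fibril growth, was the most abundant FACIT gene, with 59.6, 78.7 and 58.4 CPM in Flox, 70.7, 81.8 and 72.6 in F4MKO, and 56.9, 42.3 and 41.5 in F4MKO+FSTL1 livers. Flox and F4MKO overlapped, and F4MKO+FSTL1 lay below both (log2 -0.68 from F4MKO, SE 0.15, adjusted p = 0.00926, edgeR). Col16a1 had 1.78, 2.01 and 1.33 CPM in Flox, 3.18, 1.97 and 2.60 in F4MKO, and 1.22, 1.01 and 1.20 in F4MKO+FSTL1 livers. It fell 2.26-fold from F4MKO (log2 -1.18, adjusted p = 0.00898, edgeR), while Flox and F4MKO overlapped. Col12a1, a fibril-bound chain of tissues under load, had 4.55, 4.26 and 2.53 CPM in Flox, 6.47, 4.36 and 3.75 in F4MKO, and 2.85, 3.12 and 2.61 in F4MKO+FSTL1 livers, with log2 -0.77 from F4MKO (adjusted p = 0.0587, edgeR) and -0.50 without F4MKO replicate 1. Col20a1 had 2.08 to 3.60 CPM over all 9 libraries with no separation of the groups. Among the 5 untested FACIT genes, Col9a1, Col9a2 and Col22a1 had at most 3 counts in any library, Col9a3 had 0 to 15 and Col19a1 3 to 10.

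Type VI chains form the beaded filaments around cells, with 1 chain each from Col6a1, Col6a2 and Col6a3. All 5 listed genes of this class were tested, and these 3 fell from F4MKO to F4MKO+FSTL1 (11.2% of all tested genes). Col6a1 had 16.4, 18.9 and 17.7 CPM in Flox, 27.5, 21.7 and 22.4 in F4MKO, and 12.8, 10.5 and 9.98 in F4MKO+FSTL1 livers, in 3 groups without overlap. Col6a2 had 11.1, 11.9 and 10.4 CPM in Flox, 17.1, 13.9 and 15.6 in F4MKO, and 8.78, 6.54 and 5.80 in F4MKO+FSTL1 livers, again without overlap. Both fell by near the same factor (2.15-fold and 2.20-fold, log2 -1.11 and -1.14, adjusted p = 0.00107 and 0.00152, edgeR). Against Flox, F4MKO+FSTL1 gave log2 -0.67 and -0.66 (adjusted p = 0.0777 and 0.115, edgeR). Col6a3 had 12.3, 15.8 and 10.7 CPM in Flox, 37.7, 19.3 and 21.3 in F4MKO, and 11.1, 7.40 and 6.79 in F4MKO+FSTL1 livers, and fell 3.10-fold (log2 -1.63, SE 0.27, adjusted p = 0.00283, edgeR). F4MKO replicate 1 was far above its group for Col6a3, and without it the log2 fall was -1.27. Col6a5 (0.234 to 1.10 CPM over the 9 libraries) and Col6a6 (0.280 to 0.990) did not pass in any comparison.

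The multiplexins split. Col15a1 had 8.29, 5.0 and 6.88 CPM in Flox, 12, 6.24 and 5.63 in F4MKO, and 3.83, 3.85 and 4.91 in F4MKO+FSTL1 livers. Its fall from F4MKO was called (log2 -0.93, SE 0.29, adjusted p = 0.0422, edgeR), but of the 6 fits that each left out 1 library, the call was kept only in the 2 without F4MKO replicate 2 or replicate 3, and without F4MKO replicate 1 the log2 value was -0.50. Flox and F4MKO livers overlapped. Col18a1 had 781, 814 and 830 CPM in Flox, 655, 727 and 706 in F4MKO, and 810, 787 and 805 in F4MKO+FSTL1 livers. The F4MKO livers lay below all others, by log2 -0.22 against Flox (SE 0.10, adjusted p = 0.303, edgeR), and F4MKO+FSTL1 against F4MKO gave log2 0.20 (adjusted p = 0.170, edgeR).

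Few reads fell on the remaining classes. Col8a1, a network-forming chain, had 0.535, 0.697 and 0.355 CPM in Flox, 1.10, 1.05 and 1.52 in F4MKO, and 0.374, 0.913 and 0.470 in F4MKO+FSTL1 livers. F4MKO stood above all others without passing the threshold (log2 1.19 against Flox, adjusted p = 0.153, and -1.05 to F4MKO+FSTL1, adjusted p = 0.0670, edgeR). Col13a1, a transmembrane chain, ranged from 3.22 to 8.10 CPM and Col7a1, the chain of anchoring fibrils, from 0.268 to 0.817 CPM, with overlap in all comparisons. Col28a1 had 6, 36 and 1 counts in Flox, 7, 33 and 24 in F4MKO, and 3, 0 and 3 in F4MKO+FSTL1 livers, so that the Flox livers alone spanned nearly the whole range (F4MKO+FSTL1 against F4MKO, adjusted p = 0.0828, edgeR). Col10a1, Col17a1 and Col25a1 had at most 3 counts in any library. Col8a2 had 1 to 14 and Col23a1 2 to 23 counts, and in Col23a1 the highest were 23 and 12 in F4MKO replicates 1 and 2.

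Summed over each class, the fibrillar level was 218, 254 and 215 CPM in Flox, 395, 276 and 272 in F4MKO, and 171, 167 and 152 in F4MKO+FSTL1 livers. The basement membrane sum was 74.7, 75.9 and 66.7 CPM in Flox, 157, 121 and 103 in F4MKO, and 65.7, 50.4 and 52.4 in F4MKO+FSTL1 livers. For both sums the 3 groups did not overlap, and the ratio of F4MKO+FSTL1 to F4MKO means was 0.519 for fibrillar and 0.443 for basement membrane chains. It was 0.636 for FACIT and 0.412 for type VI genes. The multiplexin sum, nearly all Col18a1, lay the other way, at 789 to 837 CPM in Flox, 667 to 733 in F4MKO and 791 to 814 in F4MKO+FSTL1 livers. Over all 42 genes the sum was 1199 to 1295 CPM in Flox, 1239 to 1394 in F4MKO and 1094 to 1155 in F4MKO+FSTL1 livers, where only F4MKO+FSTL1 stood apart.

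**Figure D3:**
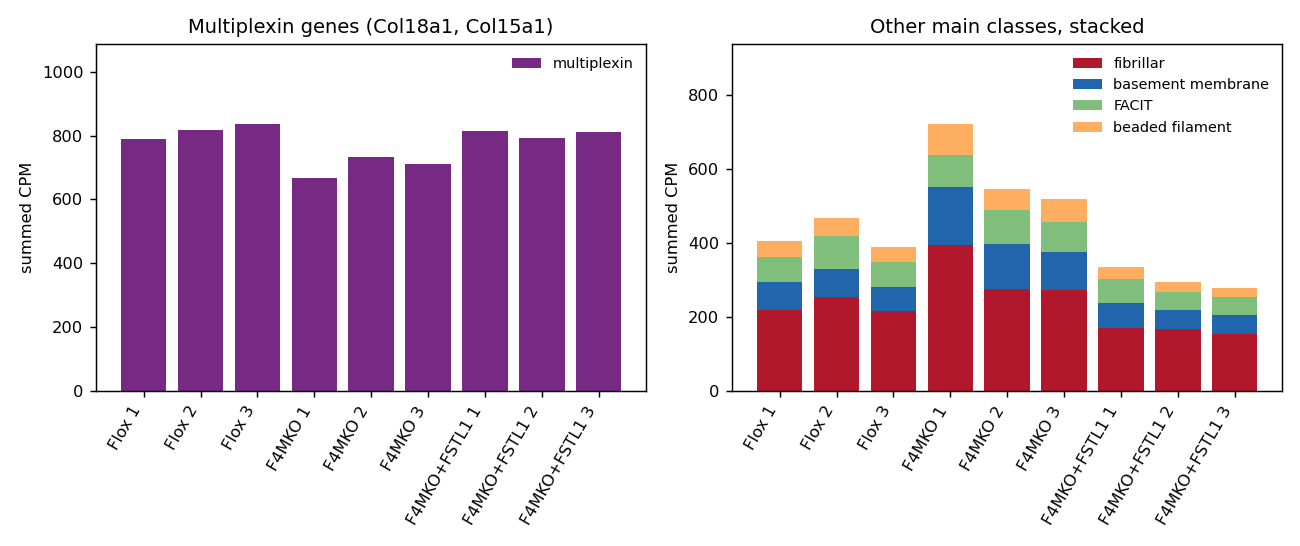
Summed CPM of the multiplexin genes (left) and of the fibrillar, basement membrane, FACIT and beaded filament genes stacked (right), 1 bar per library. The stacked bars are tallest in F4MKO, most of all in replicate 1, and the multiplexin bars are lowest there.

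The counts of paired collagen genes were divided within each library, where library size cancels. Col1a1 and Col1a2, Col4a1 and Col4a2, and Col6a1 and Col6a3 encode chains of the same molecule, while Col1a1 and Col3a1 belong to different collagens. Each Col1a1 count was divided by the Col1a2 count, giving 0.495 ± 0.0728 (SD, n = 3) in Flox, 0.681 ± 0.110 in F4MKO and 0.447 ± 0.0601 in F4MKO+FSTL1 livers. All F4MKO livers were above all others. The Col6a1 to Col6a3 ratio was 1.40 in Flox, 0.970 in F4MKO and 1.35 in F4MKO+FSTL1 livers on average, and all F4MKO livers were below all others. In an exact permutation test (two-sided) these differences from F4MKO had p = 0.1, the smallest that 3 against 3 can give, and an adjusted p of 0.3 over the 12 tests. The Col4a1 to Col4a2 ratio (1.83, 2.0 and 1.72) and the Col1a1 to Col3a1 ratio (0.326, 0.395 and 0.331) overlapped between all groups.

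**Figure D4:**
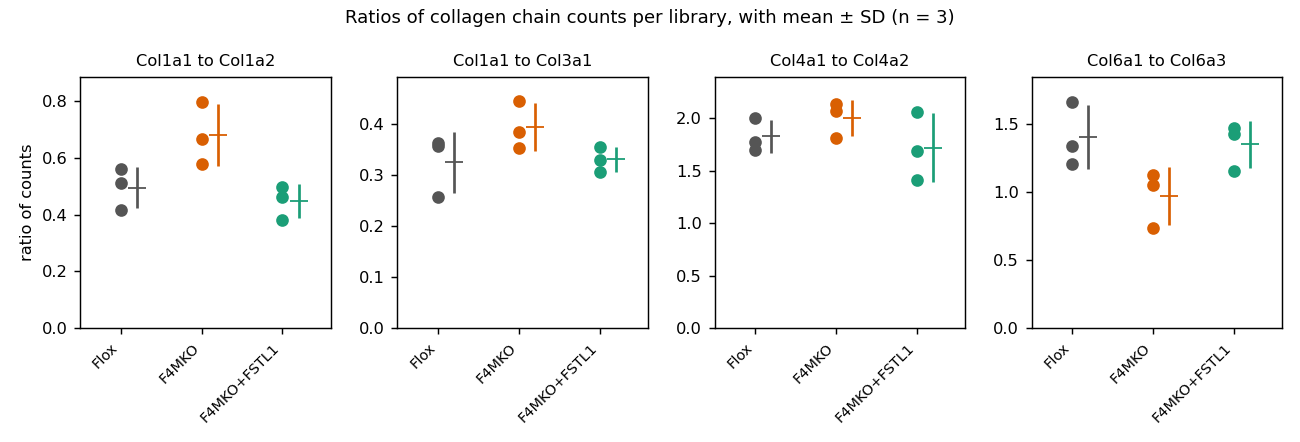
Ratio of the counts of paired collagen genes in each library (points), with mean ± SD of 3 mice per group. F4MKO lies apart from the other groups for Col1a1 to Col1a2 (higher) and Col6a1 to Col6a3 (lower), and groups overlap in the other panels.

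The start regions of the collagen genes were searched for 3 common promoter motifs, none of which contains another. RefSeq windows from 250 bases before to 50 after the start (GRCm38.p6) were found for 34 of the 42 genes, and only the first window of each gene was searched. No window was found for Col1a1, Col2a1, Col5a2, Col4a3, Col12a1, Col14a1, Col22a1 and Col9a3. On either strand, TATAAA was in 5 of 34 (14.7%, against 14.2% of 27025 promoters), CCAAT in 11 (32.4% against 37.9%) and GGGCGG in 21 (61.8% against 35.9%). The 250 bases before the start of Col3a1 (chr1:45311288-45311537, plus strand) and Col5a1 (chr2:27886175-27886424, plus strand), both genes that fell, show how unlike these regions can be. Capitals mark TATAAA in the first and GGGCGG or its reverse complement in the second.
Col3a1: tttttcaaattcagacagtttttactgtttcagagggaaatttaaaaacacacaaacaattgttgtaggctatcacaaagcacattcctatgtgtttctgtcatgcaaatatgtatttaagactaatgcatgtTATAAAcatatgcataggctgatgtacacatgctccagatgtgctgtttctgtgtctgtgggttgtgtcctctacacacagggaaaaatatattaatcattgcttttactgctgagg
Col5a1: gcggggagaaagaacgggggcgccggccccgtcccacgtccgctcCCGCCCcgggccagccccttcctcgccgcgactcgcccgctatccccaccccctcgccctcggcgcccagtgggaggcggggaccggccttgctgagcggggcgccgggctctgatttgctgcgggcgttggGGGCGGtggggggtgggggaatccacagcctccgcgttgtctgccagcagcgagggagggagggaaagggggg

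Genes that act on collagen chains were counted in lists, beside a share of 11.2% of all tested genes that fell from F4MKO to F4MKO+FSTL1 and 3.21% that rose. Of the 5 lysyl oxidases, which crosslink collagen outside the cell, 5 fell from F4MKO to F4MKO+FSTL1 (median log2 -1.33) and 0 were called in F4MKO against Flox (median 0.69). Lox had 1.12, 1.23 and 0.754 CPM in Flox, 3.71, 2.14 and 1.36 in F4MKO, and 0.748, 0.385 and 0.470 in F4MKO+FSTL1 livers (log2 -2.16 from F4MKO, adjusted p = 0.00522, edgeR), and Loxl1, Loxl2, Loxl3 and Loxl4 fell by 0.90 to 1.77 on the log2 scale. Of 18 tested genes for folding and hydroxylation of the chains in the cell, 5 fell (Crtap, Fkbp10, P3h3, Serpinh1 and Plod2), with a median of -0.18. Serpinh1, the chaperone HSP47 of procollagen, had 31.4, 20.9 and 18.9 CPM in Flox, 37.5, 34.6 and 22.1 in F4MKO, and 18.2, 13.2 and 11.4 in F4MKO+FSTL1 livers. Of 5 tested genes for procollagen processing, 3 fell (Adamts2 and Adamts14, which cut the N-propeptide, and Pcolce, which helps to cut the C-propeptide). Of 7 tested collagen receptors, 4 fell (Ddr1, Mrc2, Lair1 and Ddr2), and Ddr1 fell by 2.30 on the log2 scale. No gene of these 4 lists was called in F4MKO against Flox or in F4MKO+FSTL1 against Flox.

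Markers of some cells that can make collagen, and of some other liver cells, moved with these results, and others did not. The part of any of these cells in the results was not tested. The marker counts stand beside the same shares, 11.2% of all tested genes lower and 3.21% higher in F4MKO+FSTL1 than in F4MKO. Of 13 tested stellate cell markers, 4 fell from F4MKO to F4MKO+FSTL1 (Cygb, Lrat, Pdgfrb and Hgf), with a median log2 of -0.51. The log2 fold change was below 0 for 10 of the 13, and above 0 for Angptl6 (0.55), Vipr1 (0.20) and Ecm1 (0.14). At an unadjusted p under 0.05 (edgeR), 9 were lower (19.5% of all tested genes) and 1 was higher (15.8%). Their summed level was 339 to 355 CPM in Flox, 340 to 365 in F4MKO and 266 to 362 in F4MKO+FSTL1 livers, which overlapped. Ecm1, at 88.1 to 157 CPM, was the largest part of that sum. Of 6 myofibroblast markers, 4 were tested and 3 fell (Spon2, Timp1 and Postn), with sums of 40.8 to 59.7, 59.2 to 68.1 and 24.3 to 27.9 CPM. Spon2 was the largest part of these sums. Acta2, the defining one, did not pass in any comparison and had 2.16 to 7.92 CPM over all libraries. Tagln and Cthrc1 had at most 3 counts, and 61.8% of the transcript of Tagln lies in exons of other genes. Of 6 portal fibroblast markers, 5 fell (Eln, Entpd2, Fbln2, Fbln1 and Mfap4, median -1.09), with sums of 21.1 to 24, 33.3 to 57.7 and 16.6 to 20.1 CPM in Flox, F4MKO and F4MKO+FSTL1 livers. None of these 3 lists had a call in F4MKO against Flox.

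Of 6 cholangiocyte markers listed, 5 were tested, Epcam and Spp1 were called higher in F4MKO than in Flox (0.202% of all tested genes), and 4 fell from F4MKO to F4MKO+FSTL1 (Epcam, Krt19, Spp1 and Krt7). Their sum was 71.7, 89.2 and 50.8 CPM in Flox, 430, 161 and 223 in F4MKO, and 52.2, 36.1 and 54.1 in F4MKO+FSTL1 livers, mostly Spp1, which macrophages also express. Of 8 Kupffer cell and macrophage markers, 4 fell from F4MKO (Adgre1, Cd68, Trem2 and Cd5l), with sums of 352 to 585, 353 to 462 and 203 to 335 CPM. The log2 fold change from F4MKO was below 0 for 6 of the 8 and above 0 for 2. In F4MKO against Flox, 4 of the 8 were above 0 and 4 below, with 0 called. In F4MKO+FSTL1 against Flox, 7 were lower at an unadjusted p under 0.05 (edgeR, 9.12% of all tested genes), with 0 called. Sinusoidal endothelial markers, of cells that also make type IV collagen, had 0 of 8 called in any comparison, with sums of 299 to 391, 248 to 313 and 289 to 345 CPM that overlapped throughout. Among the mesothelial markers 1 of 5 fell (Gpm6a), with sums of 10.7 to 15.3, 8.35 to 11.2 and 5.12 to 8.78 CPM. Of 2 tested vascular smooth muscle markers 0 were called, and their sums of 10.6 to 11.2, 11 to 13.2 and 7.59 to 12.2 CPM overlapped. Of the hepatocyte markers 1 of 8 rose (Serpina1c) and 1 fell (Cyp3a11), where 3.21% of all tested genes rose and 11.2% fell. Of the adipocyte markers, Adipoq, Plin1 and Lep had at most 3 counts. Of the 3 tested, Cfd and Car3 rose from F4MKO to F4MKO+FSTL1, and Cidec was not called. Cidec had 96.5, 105 and 96.1 CPM in F4MKO and 130, 72.9 and 42.5 in F4MKO+FSTL1 livers. Cfd had 0.354, 0.0838 and 0.399 CPM in F4MKO and 65.4, 42.4 and 4.65 in F4MKO+FSTL1 livers. Car3 had 842 to 3180 CPM over the 9 libraries. Of the skeletal muscle markers, Ckm, Acta1 and Myh4 had at most 3 counts, and 0 were called.

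**Figure D5:**
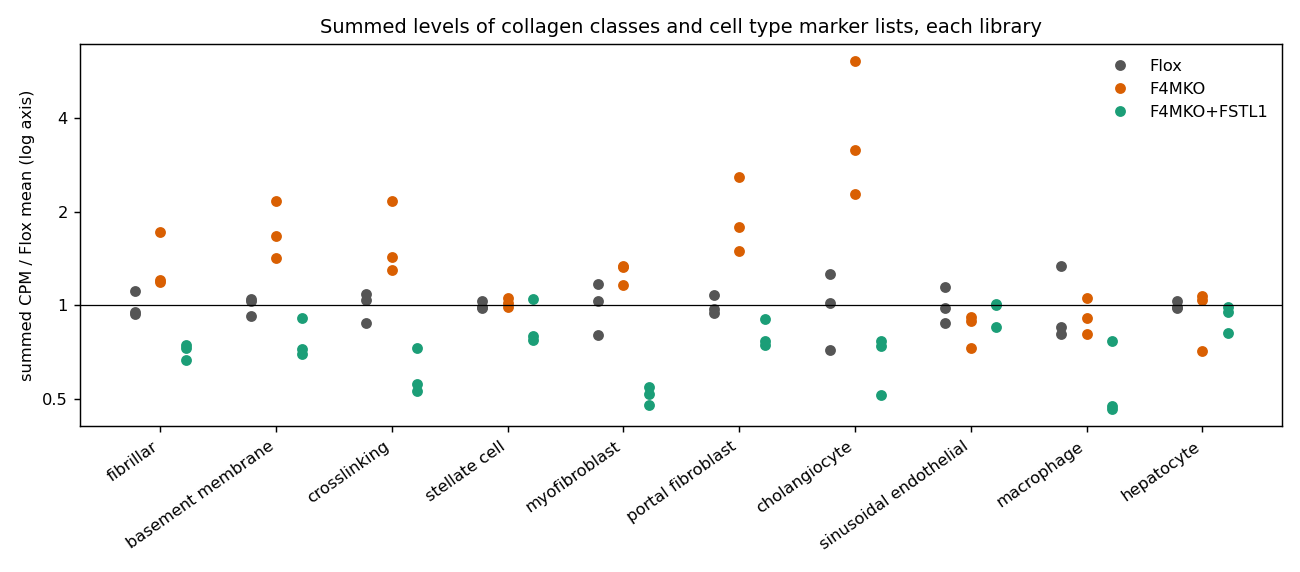
Summed CPM of 2 collagen classes, the crosslinking genes and 7 cell type marker lists in each library, divided by the Flox mean (log axis). The F4MKO points of the fibrillar, basement membrane, crosslinking, myofibroblast, portal fibroblast and cholangiocyte lists lie above 1, and the sinusoidal endothelial points of the 3 groups overlap.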

How the data were processed

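The authors deposited raw read counts per gene and library, not normalized. Per the labels they came from 150 bp paired-end reads trimmed with Trim Galore 0.6.7, mapped to mm10 with HISAT2 2.2.1 and counted with featureCounts 2.0.1. The gene annotation, the use of strand and the treatment of shared reads were not given in the sources used here. The sources give 3 liver samples per group without stating that each came from its own mouse. This was assumed, and otherwise the p-values measure a spread that may be technical. Testing used edgeR 4.0.16 under R 4.3.3. Genes passed filterByExpr (minimum count 10, minimum total 15, in 3 libraries), sizes were scaled by TMM, and 1 quasi-likelihood fit over all 9 libraries used group means. Exact permutation tests served the chain ratios. RPKM used the spliced length of the longest-coding GENCODE vM21 transcript. Alternatives were DESeq2 1.42.0, its size factors, no filter, 6 libraries, a replicate block, other fold thresholds and each library left out. In simulated data for F4MKO against Flox (14190 genes), edgeR recovered 71.7% of 2-fold and 92.9% of 4-fold changes and called 8 of 13993 unchanged genes. The simulated counts were drawn from the means and spread that the same fit estimated, and no library was made to stand apart. These shares therefore do not give the power of the test in the real libraries. The collagen classes, the other lists and the naming rule were chosen with earlier results of these data known. The rule named 14 common members, every other called member and up to 2 further members per class by smallest p, and up to 5 called genes per other list by smallest p.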

Additional observations from a re-analysis of the deposited data

How the results depend on the processing

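In F4MKO compared with Flox, 0 collagen genes were called by edgeR, also with DESeq2's size factors, with the adjusted p alone, when tested against a 1.5-fold change and with only the 6 libraries compared. The count was 8 with DESeq2, 9 without the filter and 5 with the replicate block, and 0 to 5 when each library was left out. In F4MKO+FSTL1 compared with F4MKO, the 16 calls became 18 with DESeq2 or without the filter, 17 with the replicate block, 11 when tested against a 1.5-fold change (which lost Col14a1, Col5a1, Col15a1, Col27a1 and Col16a1), 15 with 6 libraries, and 14 to 18 when each library was left out. Of the 16, 14 were called in all 6 of those fits, Col5a1 in 4 and Col15a1 in 2. The fit without F4MKO replicate 3 added Col23a1 and Col12a1, and that without F4MKO+FSTL1 replicate 2 added Col8a1. In F4MKO+FSTL1 compared with Flox, DESeq2 and the unfiltered fit gave 5 calls, and 0 were called with the replicate block and in all fits that left out a library. The cause of these differences was not tested. The pairing by replicate number rests on the number alone. The correlations of deviations of same-numbered libraries were 0.0818, 0.0422 and 0.169 in F4MKO with Flox. They were 0.111, 0.0919 and 0.304 in F4MKO+FSTL1 with F4MKO, and 0.000772, -0.0985 and 0.206 in F4MKO+FSTL1 with Flox. Only the libraries of the group named first were checked for their best match. Each of these correlated best with its own number in the first 2 comparisons but not in the last. With 1 library left out, the log2 fold change changed sign for genes that had not passed in that comparison: in F4MKO against Flox for Col15a1 (-0.18 to 0.45), Col20a1 (-0.27 to 0.0515), Col28a1 (-0.0567 to 2.40) and Col6a6 (-0.0387 to 0.34); in F4MKO+FSTL1 against F4MKO for Col20a1 (-0.0253 to 0.34) and Col24a1 (-0.35 to 0.56); and in F4MKO+FSTL1 against Flox for Col18a1 (-0.0355 to 0.0075), Col20a1 (-0.0695 to 0.20), Col4a3 (-0.81 to 0.0188), Col6a5 (-0.70 to 0.25) and Col8a1 (-0.33 to 0.40). The same held for the log2 ratio differences of F4MKO+FSTL1 against Flox for Col1a1 to Col3a1 (-0.12 to 0.13), Col4a1 to Col4a2 (-0.24 to 0.035) and Col6a1 to Col6a3 (-0.15 to 0.0814). Depth limits the 14 untested genes, and a level at 3 counts or fewer per library does not show that a gene is silent.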
